A study of Mus musculus with 6 samples.

Results

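A family of 9 genes of blood coagulation was followed in MLL-AF9 transformed mouse bone marrow cells: F3, F7, F10, F5, F13a1, Tfpi, Procr, Thbd and F2r. They were read by 16 probe sets of 45037 on the array that are not Affymetrix controls, each of these 16 having exactly 1 gene in the platform annotation, and the 9 genes stood among 18193 with such a probe set. The genes were chosen as a functional family with results of the same comparison known, so that their values below are a description and carry no test. Gene expression was measured on one-colour Affymetrix mouse arrays in 3 samples of MLL-AF9/Mn1null cells and 3 samples of MLL-AF9/Mn1wt cells. The oncogene MLL-AF9, a fusion found in acute leukaemia, and an EGFP control vector were present in both groups, and both had been sorted from mouse bone marrow and grown with mouse interleukin 3, human interleukin 6 and mouse stem cell factor. They differ in Mn1, which encodes a transcriptional cofactor and was deleted with CRISPR-Cas9 in Mn1null and left intact in Mn1wt. The sources used here do not state the guides, the number of clones or the age and strain of the animals. Whether the replicates are separate cultures or animals is not stated either, and errors and p-values therefore cover the spread of these 6 samples alone, part of which may be technical.

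Coagulation is a chain of proteases that ends in a fibrin clot. Tissue factor (F3) on a cell surface binds factor VII (F7), the pair activates factor X (F10), and activated factor X together with its cofactor factor V (F5) makes thrombin, which cuts fibrinogen into fibrin that factor XIII (A subunit, F13a1) cross-links. Tissue factor pathway inhibitor (Tfpi) blocks the first step, thrombomodulin (Thbd) and the endothelial protein C receptor (Procr) help thrombin to activate protein C, which shuts off factor V, and the receptor PAR1 (F2r) carries the thrombin signal into cells. The liver makes most plasma factors, while monocytes and macrophages are a known source of the factor XIII A subunit and can make tissue factor.

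Values are log2 RMA values, so a difference of 1 is a doubling of signal. Quantile normalization within RMA makes the arrays alike in distribution, and levels of different probe sets cannot be set against each other. The members moved in opposite directions. F13a1 and F7 were lower in Mn1null, F2r, F5, F10, Tfpi and Procr were higher, Thbd differed by less than its spread and F3 lay at the bottom of the array in both groups. Of the 16 probe sets, 12 were higher and 2 lower in Mn1null at an adjusted p of 0.05 in limma's fit to all 45037 probe sets, of which 13.2% were called higher and 14.7% lower. The groups did not overlap for 14 of the 16, against 41.1% of all probe sets. The median size of the difference, whatever its sign, was 1.57 over the members and 0.14 over all probe sets. With its sign, the median was 1.26 over the members and 0.00 over all probe sets. Since the genes were chosen on this comparison, these counts say nothing of coagulation genes in general.

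**Figure D1:**
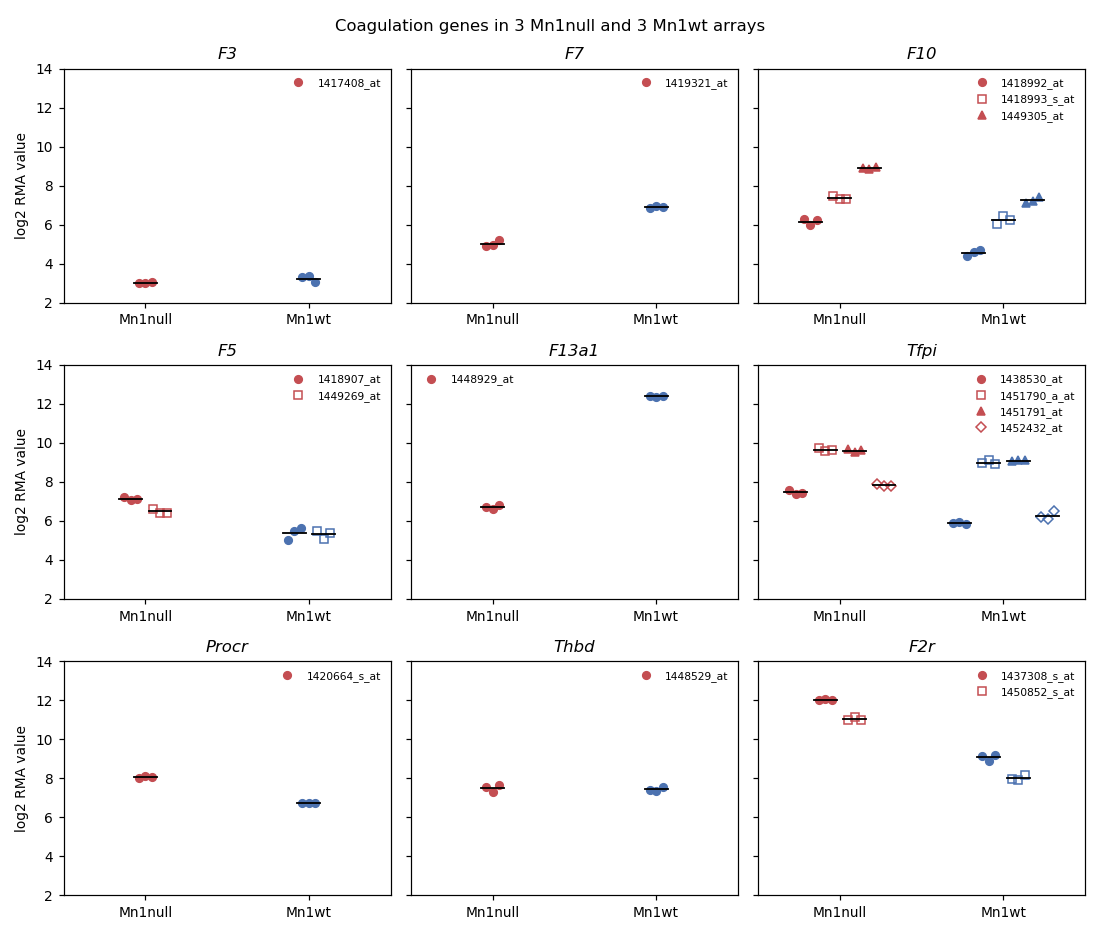
Log2 RMA values of the 16 probe sets in each of the 3 Mn1null arrays (red) and 3 Mn1wt arrays (blue), 1 panel a gene and 1 symbol a probe set, with group means as black bars. F13a1 and F7 sit lower in Mn1null, F10, F5, Tfpi, Procr and F2r sit higher, and F3 and Thbd overlap.

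The sequences before the start sites of the genes that moved most, of the F7 and F10 pair and of F3 are shown because they set each gene's regulatory sequence beside its change. They are the 250 bases upstream of the RefSeq start on build GRCm38.p6, read 5′ to 3′ on the gene's strand, and 8 of the 9 members had an entry. Capitals mark matches on either strand to 7 short motifs: AP-1, GC box, GATA, PU.1, C/EBP, MEF2 and TATA.
F13a1 (chr13:37050245-37050494, minus strand): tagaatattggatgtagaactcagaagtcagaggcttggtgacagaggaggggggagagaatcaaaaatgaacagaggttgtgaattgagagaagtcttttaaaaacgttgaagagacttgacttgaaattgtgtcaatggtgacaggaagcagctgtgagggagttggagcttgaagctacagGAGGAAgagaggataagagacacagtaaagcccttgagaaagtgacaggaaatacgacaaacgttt
F7 (chr8:13025784-13026033, plus strand): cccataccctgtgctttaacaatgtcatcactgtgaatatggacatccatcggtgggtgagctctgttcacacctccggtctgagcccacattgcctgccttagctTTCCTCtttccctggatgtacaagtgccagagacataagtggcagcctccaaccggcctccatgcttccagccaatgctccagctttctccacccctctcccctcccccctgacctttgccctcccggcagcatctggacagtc
F10 (chr8:13037058-13037307, plus strand): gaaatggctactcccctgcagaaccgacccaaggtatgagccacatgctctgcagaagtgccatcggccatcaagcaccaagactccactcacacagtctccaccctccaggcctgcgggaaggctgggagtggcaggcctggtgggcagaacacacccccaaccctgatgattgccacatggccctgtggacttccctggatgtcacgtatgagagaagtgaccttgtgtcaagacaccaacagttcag
F2r (chr13:95618467-95618716, minus strand): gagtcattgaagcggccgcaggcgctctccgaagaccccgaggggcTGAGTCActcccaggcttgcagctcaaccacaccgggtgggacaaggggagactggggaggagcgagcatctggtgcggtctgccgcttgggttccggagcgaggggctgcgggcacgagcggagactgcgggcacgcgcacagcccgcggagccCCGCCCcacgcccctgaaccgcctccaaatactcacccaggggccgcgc
F3 (chr3:121723287-121723536, plus strand): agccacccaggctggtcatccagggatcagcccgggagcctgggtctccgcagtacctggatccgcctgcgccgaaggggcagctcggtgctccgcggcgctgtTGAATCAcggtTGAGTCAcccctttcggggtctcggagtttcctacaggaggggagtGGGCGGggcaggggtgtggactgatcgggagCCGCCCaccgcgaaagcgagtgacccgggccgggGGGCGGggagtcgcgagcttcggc

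A match is a run of letters and not a known binding site. The search also took in 50 bases after the start. F13a1 has a pair of start sites in the table, and the upstream one, shown here, holds PU.1 letters from -66 to -61 and again from 18 to 23 relative to the start, while the other holds them from 15 to 20. F7 holds PU.1 letters on the opposite strand from -144 to -139, and F10 holds none of the 7 motifs. The letters searched for PU.1, GAGGAA, stood in 28.3% of all 32851 windows of the same length. F2r holds 1 AP-1 match from -204 to -198 and 1 GC box from -49 to -44. F3 holds AP-1 matches from -146 to -140 and from -135 to -129, 3 GC boxes and, after the start, TATA letters on the opposite strand from 44 to 49. The AP-1 letters, TGANTCA, stood in 7.81% of all windows. The GC box letters, GGGCGG, stood in 35.7%. Of the other members, Procr holds an AP-1 match from -154 to -148 and a C/EBP match (found in 10.8% of all windows), and F5 a MEF2 match from -32 to -23 (3.69%) and a GC box. Tfpi, with a pair of start sites, holds GC boxes, PU.1 matches, a GATA match (searched as AGATAA, 11.2% of all windows) and a TATA match. The TATA letters were TATAAA and stood in 13.6% of all windows. In these windows no 2 matches overlapped. Of the holders of AP-1 letters, F2r and Procr were higher in Mn1null and F3 was at the bottom of the range. Of the holders of PU.1 letters, F13a1 and F7 were lower and Tfpi was higher. GC boxes stood before F5, F2r and Tfpi, which were higher, and before F3.

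F3 encodes tissue factor, the trigger of the cascade. Its probe set gave 3.00, 3.00 and 3.05 in Mn1null and 3.31, 3.35 and 3.05 in Mn1wt. The groups overlapped, and the means lay at the 4.3rd percentile of all probe sets in Mn1null and the 9.4th in Mn1wt. The difference of -0.22 ± 0.088 (SE) is among values near the floor of RMA, where no order can be read. It was not called, except without Mn1wt replicate 3 (-0.31).

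F7, the partner of tissue factor, was lower in Mn1null. It gave 4.92, 4.96 and 5.19 in Mn1null, against 6.88, 6.97 and 6.90 in Mn1wt. All 3 Mn1null values lay at least 1.5 units under the lowest Mn1wt value. The difference was -1.89 ± 0.085 (SE), a 3.72-fold lower signal, and ranked 202nd among the falls of the 45037 probe sets.

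F10, the next protease of the chain, was higher in Mn1null on all 3 of its probe sets. The brightest (1449305_at) gave 8.90, 8.83 and 8.95 in Mn1null and 7.12, 7.19 and 7.43 in Mn1wt, a difference of 1.65 ± 0.092 (SE) or 3.13-fold. The groups were apart by more than 1 unit between their nearest values. Probe set 1418992_at gave 6.30, 5.96 and 6.22 in Mn1null and 4.40, 4.57 and 4.69 in Mn1wt, with a difference of 1.60. Probe set 1418993_s_at, whose suffix marks probes shared between transcripts, gave 7.47, 7.31 and 7.30 in Mn1null and 6.02, 6.42 and 6.26 in Mn1wt, with a smaller difference of 1.13.

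F7 and F10 are next to each other on chromosome 8 and run in the same direction, with starts 11274 bases apart in RefSeq. Their differences had opposite signs in the same arrays. Proz, which encodes protein Z, a vitamin K dependent cofactor of an inhibitor of activated factor X, is the next gene after F10. It gave 3.61 ± 0.063 in Mn1null and 3.39 ± 0.15 in Mn1wt (SD, n = 3 each), near the floor (limma adjusted p = 0.106), and passed without Mn1wt replicate 3 (0.31 higher, adjusted p = 0.0215). Pcid2, the next gene, gave 8.66 ± 0.048 in Mn1null and 9.26 ± 0.030 in Mn1wt (SD, n = 3 each), lower without overlap by 0.60 on the log2 scale (limma adjusted p = 2.57e-04). Mcf2l, on the other side of F7, gave 6.92 ± 0.18 in Mn1null and 6.98 ± 0.19 in Mn1wt (adjusted p = 0.807).

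**Figure D2:**
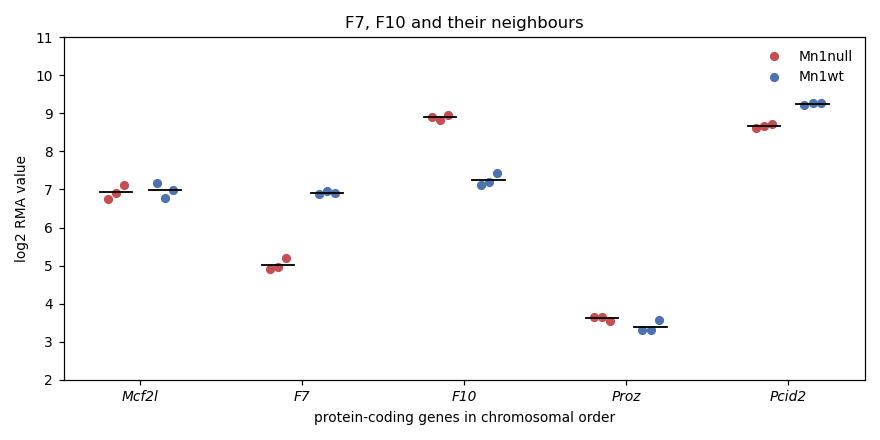
Log2 RMA values of F7, F10 and the nearest protein-coding genes in chromosomal order, each by its brightest probe set, in 3 Mn1null arrays (red, left of each pair) and 3 Mn1wt arrays (blue), with group means as black bars. F7 is lower and F10 higher in Mn1null, Pcid2 is lower, and Mcf2l and Proz overlap between the groups.

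F5 encodes factor V, the cofactor of activated factor X. Probe set 1418907_at gave 7.24, 7.05 and 7.14 in Mn1null and 5.02, 5.48 and 5.65 in Mn1wt, a difference of 1.76 ± 0.15 (SE) or 3.38-fold. Probe set 1449269_at gave 6.63, 6.40 and 6.42 in Mn1null and 5.50, 5.06 and 5.37 in Mn1wt, a difference of 1.18 ± 0.12 or 2.26-fold. Both probe sets were without overlap, and the Mn1wt values of the first were the most spread of all 16 probe sets (SD 0.325).

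F13a1 encodes the A subunit of factor XIII, the transglutaminase that cross-links fibrin, and had the largest difference of the 9 genes. It gave 6.69, 6.63 and 6.81 in Mn1null, against 12.42, 12.36 and 12.43 in Mn1wt. Its Mn1wt mean stood at the 98.5th percentile of all probe sets, and its Mn1null mean at the 65.6th, well above the bottom of the array. The difference was -5.69 ± 0.069 (SE), a 51.6-fold lower signal, the 5th largest fall on the array. Its values in the 6 arrays, centred on their mean, were closest to those of Mef2c, a transcription factor gene (Euclidean distance 0.40, its probe set 1451507_at), Ctss, a lysosomal protease (0.44), and Col19a1, a collagen (0.97), which differed by -5.63, -5.39 and -4.91. With 2 groups of 3 this likeness is mostly that of the size of the difference. Unlike F13a1, Mef2c and Col19a1 had low Mn1null means, 3.41 (13.7th percentile) and 3.71 (21.6th percentile), where RMA compresses signals. In bulk RNA, fewer cells of a type and less RNA per cell cannot be told apart.

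Tfpi, the inhibitor of the tissue factor pathway, was higher on all 4 of its probe sets, by amounts that differed. Probe set 1438530_at gave 7.60, 7.38 and 7.41 in Mn1null and 5.87, 5.95 and 5.85 in Mn1wt, a difference of 1.57 ± 0.077 (SE). Probe set 1452432_at gave 7.90, 7.80 and 7.80 in Mn1null and 6.22, 6.08 and 6.50 in Mn1wt, also a difference of 1.57. The other probe sets, which share a source sequence in the platform annotation, had smaller differences. The suffix of 1451790_a_at keeps it out of the probe sets designed for 1 transcript. Probe set 1451790_a_at gave 9.74, 9.60 and 9.64 in Mn1null and 8.95, 9.10 and 8.90 in Mn1wt, a difference of 0.67 ± 0.076. Probe set 1451791_at gave 9.67, 9.51 and 9.61 in Mn1null and 9.07, 9.10 and 9.10 in Mn1wt, a difference of 0.51 ± 0.064. Which Tfpi transcripts each probe set reads was not tested.

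Procr encodes the endothelial protein C receptor, which is also found on blood stem cells. It gave 8.01, 8.10 and 8.07 in Mn1null and 6.75, 6.70 and 6.73 in Mn1wt, with a difference of 1.33 ± 0.058 (SE) or 2.52-fold. The replicates of each group lay within 0.1 units of each other. The suffix of its only probe set, 1420664_s_at, marks probes shared between transcripts. Thbd encodes thrombomodulin, the thrombin-binding partner of this receptor in protein C activation. It gave 7.56, 7.31 and 7.64 in Mn1null and 7.39, 7.36 and 7.57 in Mn1wt. The groups overlapped, and the difference of 0.06 had a 95% interval of -0.18 to 0.30, which leaves room for a change of up to 0.30 on the log2 scale.

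F2r encodes PAR1, the main thrombin receptor of many cell types, though mouse platelets use other receptors of the family. It had the largest rise of the 9 genes. Probe set 1437308_s_at gave 12.01, 12.05 and 12.01 in Mn1null and 9.14, 8.87 and 9.17 in Mn1wt, a difference of 2.96 ± 0.089 (SE) or 7.79-fold. Probe set 1450852_s_at gave 10.97, 11.15 and 10.97 in Mn1null and 7.95, 7.91 and 8.18 in Mn1wt, a difference of 3.02 ± 0.095 or 8.10-fold. The suffix of both marks probes shared between transcripts, so that neither is among the probe sets designed for 1 transcript. The probe sets agreed in size to within 0.1 units, and they ranked 87th and 81st among the rises on the array. Whether they share probes was not tested. The Mn1null mean of 1437308_s_at stood at the 97.9th percentile of all probe sets, and its Mn1wt mean at the 84th.

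**Figure D3:**
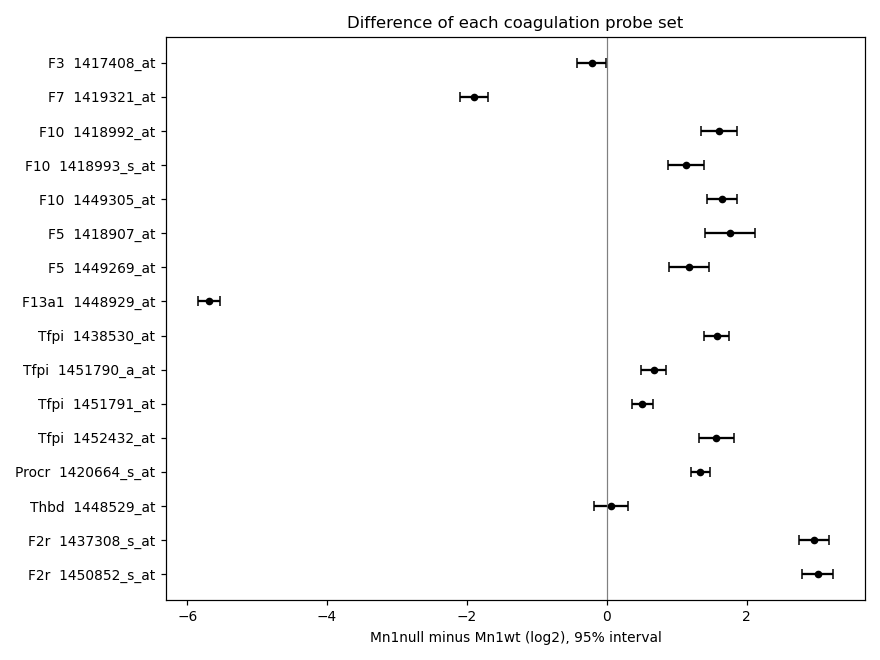
Difference of group means, Mn1null minus Mn1wt on the log2 scale, for each of the 16 probe sets, with 95% intervals from limma, ordered from the trigger of the cascade to the thrombin receptor. Probe sets of 1 gene share their sign, F13a1 stands at -5.69 and the F2r probe sets at 2.96 and 3.02.

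**Figure D4:**
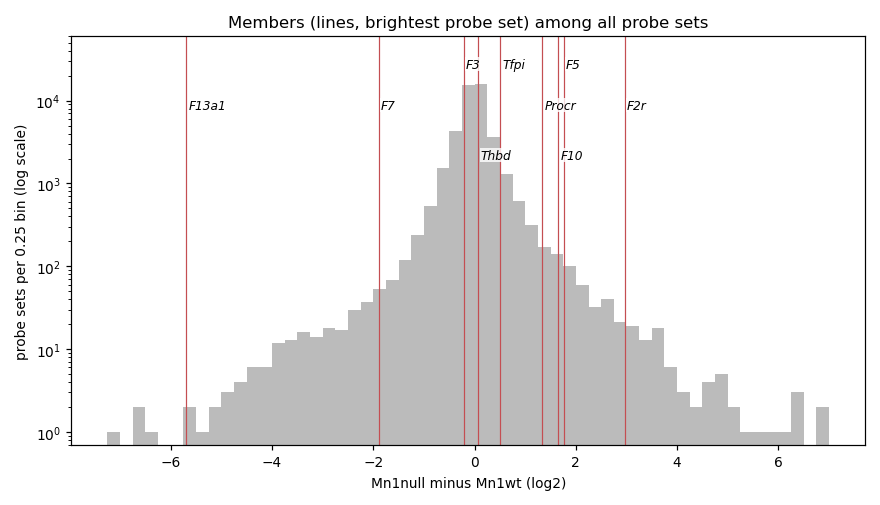
Number of probe sets (log scale) by their difference, Mn1null minus Mn1wt in log2 bins of 0.25, for all 45037 probe sets, with lines at the brightest probe set of each member. F13a1 lies in the far left tail and F2r in the right tail, while Thbd and F3 lie in the central bins.

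Other genes of coagulation and fibrinolysis moved in both directions, with more called higher than lower, and most were not called. From a list of 49 drawn from general knowledge of the pathway, 45 had a probe set, and by the brightest probe set of each gene 13 were higher and 5 lower in Mn1null while 27 did not pass (limma, adjusted p of 0.05). Over all 18193 genes read the same way, 16.7% were called higher and 18% lower. The median difference of the list was -0.01, beside 0.00 over all genes.

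Among 10 other clotting factors 2 were higher, 0 lower by limma (2 at an unadjusted p under 0.05, F9 and Fgb) and 8 did not pass. Fgb passed without Mn1null replicate 2 (-0.37, limma adjusted p = 0.0451). Vwf, von Willebrand factor, the carrier of factor VIII, gave 5.999 ± 0.085 in Mn1null and 4.46 ± 0.10 in Mn1wt (SD, n = 3 each), which is 1.54 higher (limma adjusted p = 9.19e-06). F8 itself differed by 0.53 ± 0.099 (SE, limma adjusted p = 0.00588) from a low level of 4.21 in Mn1wt. Of the 10 factors 4 had a mean over both groups above log2 4.07, the level under which 30% of all probe sets lie, and the others, F2 and the fibrinogen chains Fga and Fgb among them, lay under it. The contact system genes Klkb1 (-0.01, adjusted p = 0.965) and Kng1 (-0.11, adjusted p = 0.428) did not pass.

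The other thrombin receptors were higher in Mn1null, as F2r was. F2rl3, which encodes PAR4, gave 9.07 ± 0.017 in Mn1null and 8.32 ± 0.030 in Mn1wt (SD, n = 3 each), which is 0.75 higher (limma adjusted p = 6.32e-05). F2rl2, which encodes PAR3, differed by 0.67 ± 0.11 (SE, adjusted p = 0.00268) on its brighter probe set and by 0.43 on the other, which did not pass (adjusted p = 0.0886). F2rl1, a gene of the same receptor family, had no probe set naming it alone.

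Among 6 genes of vitamin K dependent processing and of secretion, 2 were higher, 1 lower and 3 did not pass. Vkorc1, which recycles the vitamin K that F7 and F10 need for gamma-carboxylation, was higher by 0.91 ± 0.062 (SE, limma adjusted p = 4.15e-05), and the protease Furin by 0.61 ± 0.062 (adjusted p = 2.67e-04). Lman1, the cargo receptor for factors V and VIII, was lower on all 5 of its probe sets, by 0.31 on the brightest (adjusted p = 0.00556). The F5 transcript was higher in the same arrays.

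Among 9 anticoagulant genes, 2 were higher, 1 lower and 6 did not pass. Anxa5, which covers phosphatidylserine, was higher by 0.70 ± 0.061 (SE, limma adjusted p = 1.35e-04). Serpinc1, antithrombin, differed by -0.56 ± 0.10 (adjusted p = 0.00477) and Tfpi2 by 0.28 ± 0.077 (adjusted p = 0.033), the first with a Mn1null mean and the second with both group means under log2 4.07, and the call of Tfpi2 was lost without any 1 of 4 arrays. Protein C (Proc), which binds the receptor that Procr encodes, did not pass at a level of 4.03 ± 0.14 in Mn1null and 4.05 ± 0.043 in Mn1wt (SD, n = 3 each).

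In fibrinolysis, 3 of 7 genes of plasminogen and its activation were higher, 1 lower and 3 did not pass. Plgrkt, a plasminogen receptor, was higher by 1.22 ± 0.060 (SE, limma adjusted p = 7.60e-06), and Plg, plasminogen, by 0.96 ± 0.13 (adjusted p = 0.00105). The third, S100a10, was named after its value was seen, and differed by 0.25 with 0.14 on another probe set that did not pass, and its call was lost without any 1 of 5 arrays. Plaur, the urokinase receptor, differed by -0.24 ± 0.062 (adjusted p = 0.0231), a call lost without any 1 of 5 arrays. Of the inhibitors, Serpinb2, which blocks plasminogen activators, was higher by 0.83 ± 0.14 (adjusted p = 0.00385), from a low level of 4.19 in Mn1wt. Serpinf2, antiplasmin, differed by 0.04 (adjusted p = 0.672).

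Among the transglutaminases related to F13a1, Tgm2 moved the other way. It gave 9.30 ± 0.086 in Mn1null and 7.64 ± 0.098 in Mn1wt (SD, n = 3 each), which is 1.66 higher (limma adjusted p = 5.89e-06). Of its 6 probe sets 5 passed upward, but the suffixes of all 6 mark them as not designed for 1 transcript. Whether they share probes was not tested. Tgm1 (-0.01, adjusted p = 0.971) and Tgm3 (-0.07, adjusted p = 0.547) did not pass. Among 4 genes listed for phosphatidylserine exposure, the membrane signal on which clotting factors assemble, 0 were higher by limma (0 at an unadjusted p under 0.05) and 2 lower. Plscr3, listed as a scramblase family member, was lower by 1.08 ± 0.062 (SE, limma adjusted p = 1.58e-05). Its part in phosphatidylserine exposure was not tested. Xkr8, a caspase-activated scramblase, was lower by 0.25 ± 0.067 (limma adjusted p = 0.0269), a call lost without any 1 of 5 arrays. Ano6, the calcium-activated scramblase of platelets, differed by 0.00 on its brightest probe set (adjusted p = 0.992) and by 0.21 on the other (adjusted p = 0.0449).

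**Figure D5:**
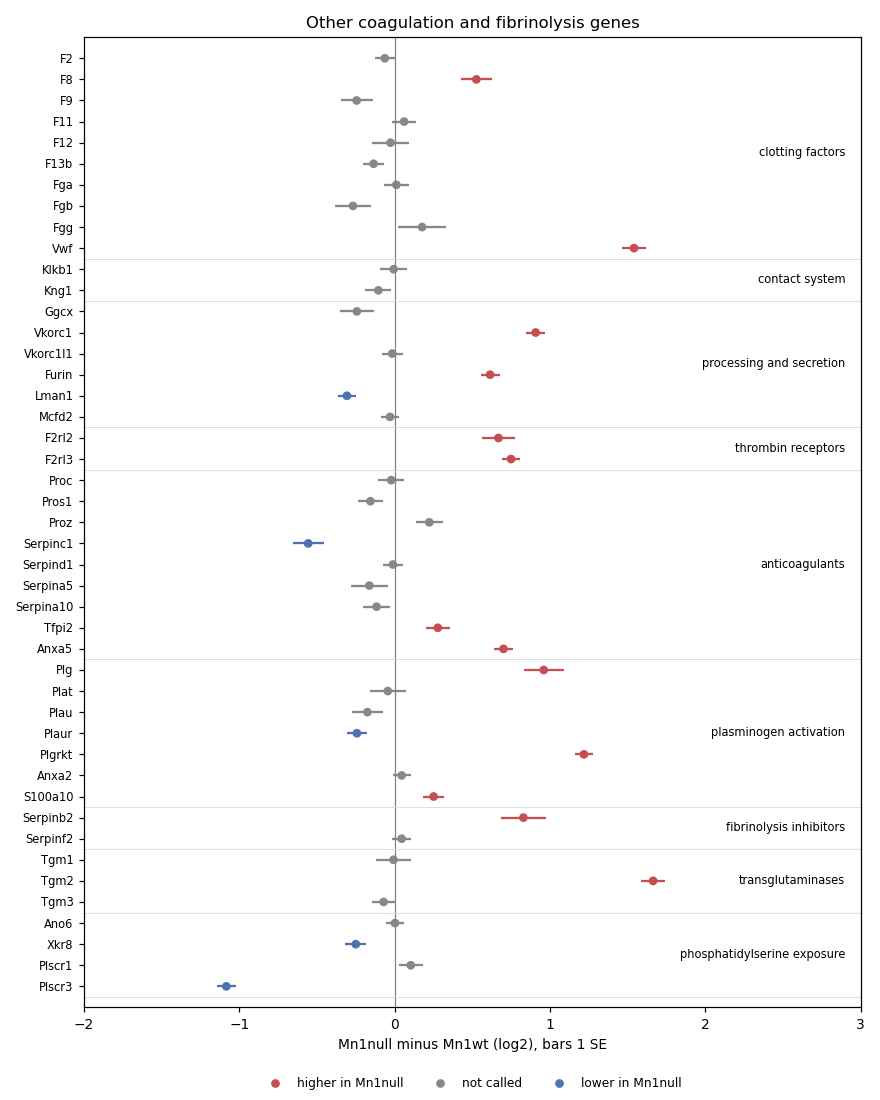
Difference of group means, Mn1null minus Mn1wt on the log2 scale with 1 SE, for 45 other coagulation and fibrinolysis genes by role, each by its brightest probe set. Red points (13) were called higher and blue points (5) lower in Mn1null by limma at an adjusted p of 0.05, and 27 grey points were not called.

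Chromosomal neighbours of the members moved in both directions. The protein-coding genes next to the 9 members in RefSeq, looked up after the members' values were seen, numbered 16, of which 14 had a probe set, and 5 were higher, 3 lower and 6 did not pass. Over all 18193 genes read the same way, 16.7% were called higher and 18% lower, so that counts this small say little of neighbours. Selp, the P-selectin gene next to F5, was lower by 2.69 ± 0.065 (SE, limma adjusted p = 2.65e-07) while F5 was higher, and Calcrl, a peptide hormone receptor gene next to Tfpi, was lower by 2.06 ± 0.092 (adjusted p = 4.82e-06) while Tfpi was higher. Ly86, next to F13a1, was lower by 0.65 (adjusted p = 0.00422), and Cd93, Slc19a2, Edem2, Iqgap2 and Abcd3 were the 5 higher neighbours, of Thbd, F5, Procr, F2r and F3 in that order.

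Markers of the cell types in which these genes are known were read in the same arrays, as the mean log2 value over each list. For comparison with the counts below, 16.7% of all 18193 genes were called higher and 18% lower. Of 7 monocyte and macrophage markers measured, 3 were higher and 3 lower, with list means of 6.58 to 6.65 in Mn1null and 7.12 to 7.27 in Mn1wt. Ccr2, the chemokine receptor of inflammatory monocytes, differed by -3.60, Cd14 by -2.12 and Csf1r by -1.50, the same direction as F13a1, whereas Adgre1, Fcgr1 and Itgam differed by 1.11, 1.04 and 0.84. Mast cell and basophil markers were higher for 5 of 6 measured (10.42 to 10.46 in Mn1null, 8.27 to 8.40 in Mn1wt), neutrophil markers for 5 of 6 (10.45 to 10.51 in Mn1null, 9.55 to 9.69 in Mn1wt), and megakaryocyte markers for 2 of 5 with 1 lower (7.59 to 7.71 in Mn1null, 6.84 to 7.01 in Mn1wt). The megakaryocyte markers Itga2b and Gp9 differed by 3.62 and 1.03, whereas Pf4 differed by -0.98. Of 5 endothelial markers, only Pecam1, which blood cells also express, passed, while Tek and Emcn lay under log2 4.07 in both groups (list means 5.56 to 5.66 in Mn1null, 5.23 to 5.40 in Mn1wt). Of 3 liver markers none passed limma's test (0 at an unadjusted p under 0.05), and Alb lay under the same level in both groups (5.50 to 5.61 in Mn1null, 5.39 to 5.62 in Mn1wt). Of 4 stromal markers 1 was higher and 1 lower, and none of the T cell (2), B cell (1) and erythroid (1) markers measured passed limma's test (0 at an unadjusted p under 0.05). The part of these lists in the differences of the coagulation genes was not tested.

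Over all probe sets, the correlation was 0.997 to 0.998 within a group and 0.981 to 0.983 between groups, and array medians lay between 5.17 and 5.23. The only probe set of Mn1 differed by -0.22 ± 0.11 (SE, limma adjusted p = 0.182) near the bottom of the range, and since the sources used here do not place it relative to the deletion, it checks nothing. The 8 probe sets for the 5′ ends of the bacterial labelling controls averaged 6.47 in Mn1null and 7.32 in Mn1wt, a difference of -0.85 between the same arrays, and its part in the results was not tested.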

How the data were processed

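The 6 samples, 3 Mn1null and 3 Mn1wt as their titles say, were each read on 1 one-colour Affymetrix array. The authors deposited 1 log2 value per probe set and array, and the submitters' processing notes name RMA as the method. This method takes off background, equalises the distributions of the arrays and sums up the probes of a set, which removes overall differences between arrays and compresses low signals. The sources used here state neither its version nor a filter. The number of arrays limits the precision.

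Of 45101 probe sets, 64 controls were left out. Of the other 45037, 34945 named 1 gene, 932 several and 9160 were not listed. All 45037 were fitted without a filter or block in limma 3.58.1 (R 4.3.3; lmFit and eBayes), for the 2-sided difference Mn1null minus Mn1wt, adjusting p-values by Benjamini-Hochberg over all of them with a threshold of 0.05. The fit was tested on simulated data. A fold is 2 to the power of the log2 difference. Genes of the pathway, marker and neighbour lists were read by the probe set with the highest mean. The members and lists were chosen with earlier results of these data known. Named were all member probe sets, up to 2 pathway genes per role and direction by size and all genes of roles with under 4 tested, and 3 genes nearest to F13a1; S100a10, Proc, Proz, Ano6, F9, Fga, Fgb, F2 and the chromosomal neighbours were named outside this rule, after their values were seen. Promoters and gene order came from RefSeq (GRCm38.p6).

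Replicate numbers did not pair the samples: deviations of same-numbered arrays from their group means correlated at -0.036, 0.078 and 0.023. Alternatives were the replicate block, a filter at the 30th percentile, 1 probe set per gene, quantile normalization, median centring, a trended robust prior, array weights, a threshold of 0.01, probe sets designed for 1 transcript and each array left out.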

Additional observations from a re-analysis of the deposited data

How the results depend on the processing

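Of 195 recomputed differences of the members, 51 equal the reported ones by construction (the replicate block, the filter, 1 probe set per gene and probe sets designed for 1 transcript leave a difference of means as it is). The other 144 moved by less than 1 SD of the replicates, pooled over the groups. With an array left out this was fixed in advance, since dropping 1 of 3 values cannot move a mean that far. Median centring moved all members by the same amount, so it does not test them singly. The only change of sign was that of Thbd, -0.004 without Mn1null replicate 3. F2r and Procr have no probe set designed for 1 transcript and drop out of that setting. The count of 14 called member probe sets (12 higher, 2 lower) became 7 of 9 (5 higher) with 1 probe set per gene and 9 of 11 (7 higher) with probe sets designed for 1 transcript, where fewer probe sets enter, and as many, 7 and 9, had groups without overlap. With single arrays left out it ranged from 14 to 15, higher calls stayed at 12, lower calls ranged from 2 to 3 and probe sets without overlap from 14 to 15; the extra lower call was F3 without Mn1wt replicate 3. Of the other coagulation genes, the 18 called ranged from 14 to 16 with an array left out, the 13 higher from 11 to 13 and the 5 lower from 3 to 4; these counts include 2 calls gained, Fgb without Mn1null replicate 2 and Proz without Mn1wt replicate 3. The lower count was 3 without Mn1null replicate 3, Mn1wt replicate 1 or Mn1wt replicate 3. With the replicate block 14 were called, 11 higher and 3 lower, and with a threshold of 0.01 the lower count was also 3. In both, the calls lost were S100a10, Plaur, Xkr8 and Tfpi2. The block changed no call of a member. The block uses numbers that did not pair the arrays. Over all probe sets, the filter at the 30th percentile raised the shares called to 19.3% higher and 22.2% lower. Of the 34 pathway genes left 17 were called, 12 higher and 5 lower. Signals near the floor, as for F3, limit what any of these settings can show.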
